A study of Mus musculus with 9 samples.

Results

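A panel of 37 mouse genes of DNA repair and the DNA damage checkpoint was followed in C2C12 cells, an established line of mouse myoblasts, after 72 h with the active hormone form of vitamin D. The genes were found by name among the array probes, and 36 of the 37 had a usable probe among the 21905 genes tested. They were sorted into 23 genes whose expression is commonly tied to S phase (22 measured), 10 genes commonly held to be constitutive, and 4 that were placed in neither class. The classes came from general knowledge of the genes. Both the panel and the classes were chosen with earlier results of these arrays already known.

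Each of the 9 samples was total RNA of C2C12 cells on its own 1-colour array, and each group held 3 biological replicates per the labels. The vehicle group received vehicle alone for 72 h. The hormone, labelled 1,25 (OH)2-vitamine D3, was given to the other groups for the same time, at 1 nM to one and at 10 nM to the other. The passage and the state of differentiation of the cells are not given in the sources used here, and all 3 groups are the same single cell line, without a second line or a donor as a unit of replication. Measurements were signals of bulk RNA, so fewer cells of a type and less RNA per cell cannot be told apart.

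Homologous recombination copies an intact sister chromatid to mend a broken one, and the Fanconi pathway unhooks crosslinks that stall replication forks. Both work mainly while DNA is being copied, and many of their genes are transcribed under E2F factors as cells enter S phase. Base excision repair, single-strand break repair and the damage-sensing kinases serve resting cells as well, and in muscle precursors most replication genes are silenced when cells leave the cycle.

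RefSeq promoter windows of 300 bases (250 before to 50 after the annotated gene start, build GRCm38.p6) were found for 31 of the 37 genes. Those of 3 genes are shown by a fixed rule and are not typical of their classes, since most S-phase-linked windows held no E2F word. Brca2 and Lig1 are the S-phase-linked genes with the largest fall at 1 nM among those whose window holds an E2F word. Atr is the constitutive gene with the smallest change at 1 nM. Capitals mark the E2F words. The Brca2 window is chr5:150522371-150522670, plus strand, and its word begins at position -168 from the gene start. The Lig1 window is chr7:13278576-13278875, plus strand, 1 of 3 windows of that gene, with its word at position 26. The Atr window is chr9:95857347-95857646, plus strand, and has no capitals.
Brca2: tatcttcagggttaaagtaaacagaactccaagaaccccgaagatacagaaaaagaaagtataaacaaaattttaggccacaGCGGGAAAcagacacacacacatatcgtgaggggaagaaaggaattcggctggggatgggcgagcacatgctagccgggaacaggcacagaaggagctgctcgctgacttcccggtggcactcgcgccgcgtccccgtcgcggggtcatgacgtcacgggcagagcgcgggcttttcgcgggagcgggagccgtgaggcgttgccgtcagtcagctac
Lig1: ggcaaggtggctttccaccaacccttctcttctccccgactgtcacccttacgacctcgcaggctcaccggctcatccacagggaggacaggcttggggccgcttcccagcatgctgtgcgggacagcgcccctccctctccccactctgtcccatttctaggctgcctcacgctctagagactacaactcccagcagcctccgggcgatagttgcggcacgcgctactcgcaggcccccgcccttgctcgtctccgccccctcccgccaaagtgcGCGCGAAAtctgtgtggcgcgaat
Atr: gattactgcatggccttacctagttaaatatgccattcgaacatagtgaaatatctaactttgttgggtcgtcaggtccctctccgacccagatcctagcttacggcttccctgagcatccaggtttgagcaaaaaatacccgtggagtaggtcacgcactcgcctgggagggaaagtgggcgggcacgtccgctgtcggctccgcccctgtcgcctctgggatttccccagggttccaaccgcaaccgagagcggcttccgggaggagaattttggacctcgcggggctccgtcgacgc

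The E2F words searched were TTTCCCGC, TTTCGCGC, TTTGCCGC and TTTGGCGC, on both strands. They were found in 4 of 21 windows of S-phase-linked genes (19%), in 1 of 10 windows of constitutive genes (10%) and in 744 of all 32851 windows (2.26%). A shorter core, TTCCCGC or TTGGCGC, which overlaps the longer words, was found in 47.6% of the S-phase-linked windows, 20% of the constitutive windows and 6.81% of all windows. The CHR word TTTGAA was found in 9.52%, 0% and 17.9% of these, and CCAAT in 52.4%, 60% and 37.4%. The genes with an E2F word were Bard1, Brca2, Lig1 and Msh6 among the S-phase-linked genes, Chek2 among the constitutive ones, and Fancg of those in neither class. Of these, Brca2, Lig1 and Chek2 were called lower at both doses and Fancg at 10 nM alone, while Bard1 and Msh6 were not called. These matches are descriptions of letters in a window. Whether a factor binds there was not measured.

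Signals are given as the level, the log2 of the processed signal minus the 75th percentile of its array, so that a difference of 1 is a 2-fold difference. The arrays had 75th percentiles of 2825.7 to 3389.3 intensity units. Vehicle replicate 3 stood apart. It held 6124 spots marked as non-uniform against 8 to 56 on the other arrays, 96.4% of its spots were well above background against 67.1% to 79.2%, and its correlation with the other vehicle arrays was 0.969 to 0.972 against at least 0.992 within groups otherwise. Dim probes read higher on that array, and counts are therefore also given without it. Of the muscle markers, 11 of 12 were well above background on every array, Myf5 being the exception. Cyp24a1, the vitamin D-degrading hydroxylase used as a check of the treatment, rose by 1.29 (SE 0.22, adjusted p = 0.00385) at 1 nM and by 6.13 (SE 0.22, adjusted p = 7.32e-07) at 10 nM.

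At 1 nM, 22 of the 36 measured repair and checkpoint genes fell (limma, Benjamini-Hochberg adjusted p below 0.05 over all genes), where 11.9% of all genes were called lower. None of the 36 was called higher, where 11.8% of all genes were, and the other 14 did not pass. At 10 nM 23 fell and none was called higher, where 14.7% and 15.5% of all genes were called in these directions. The median change of the panel was -0.83 at 1 nM and -0.82 at 10 nM, beside -0.09 and -0.11 for all genes. Both doses were compared with the same vehicle arrays, so their counts are not independent of each other.

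The S-phase-linked genes carried most of these calls. At each dose 18 of 22 fell, with a median change of -2.30 at 1 nM and -2.12 at 10 nM. These counts and medians include 4 genes that passed the filter through the vehicle arrays alone, as described below. Of the constitutive genes, 3 of 10 fell at 1 nM (Chek2, Fancl and Xrcc3) and 2 at 10 nM (Chek2 and Fancl), with medians of -0.05 and -0.17. Of the 4 genes in neither class, H2afx fell at 1 nM, and H2afx, Palb2 and Fancg fell at 10 nM. The difference between the classes is a description of counts and medians and was not tested.

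Array by array, the median deviation of the S-phase-linked genes from their vehicle means lay between -2.39 and -2.15 on the 1 nM arrays and between -2.30 and -2.02 on the 10 nM arrays, with -0.08 to 0.12 on the vehicle arrays. The same median for the constitutive genes stayed between -0.22 and 0.11 on all 9 arrays. Esco2, Neil3, Fancd2 and Brip1 passed the filter on dim probes through the vehicle arrays alone, so they had to differ. Without these 4, 14 of 18 S-phase-linked genes were lower at each dose. The S-phase-linked medians above include these 4. Over probes above background on all arrays the median fall was smaller at both doses, as given in the closing section.

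**Figure D1:**
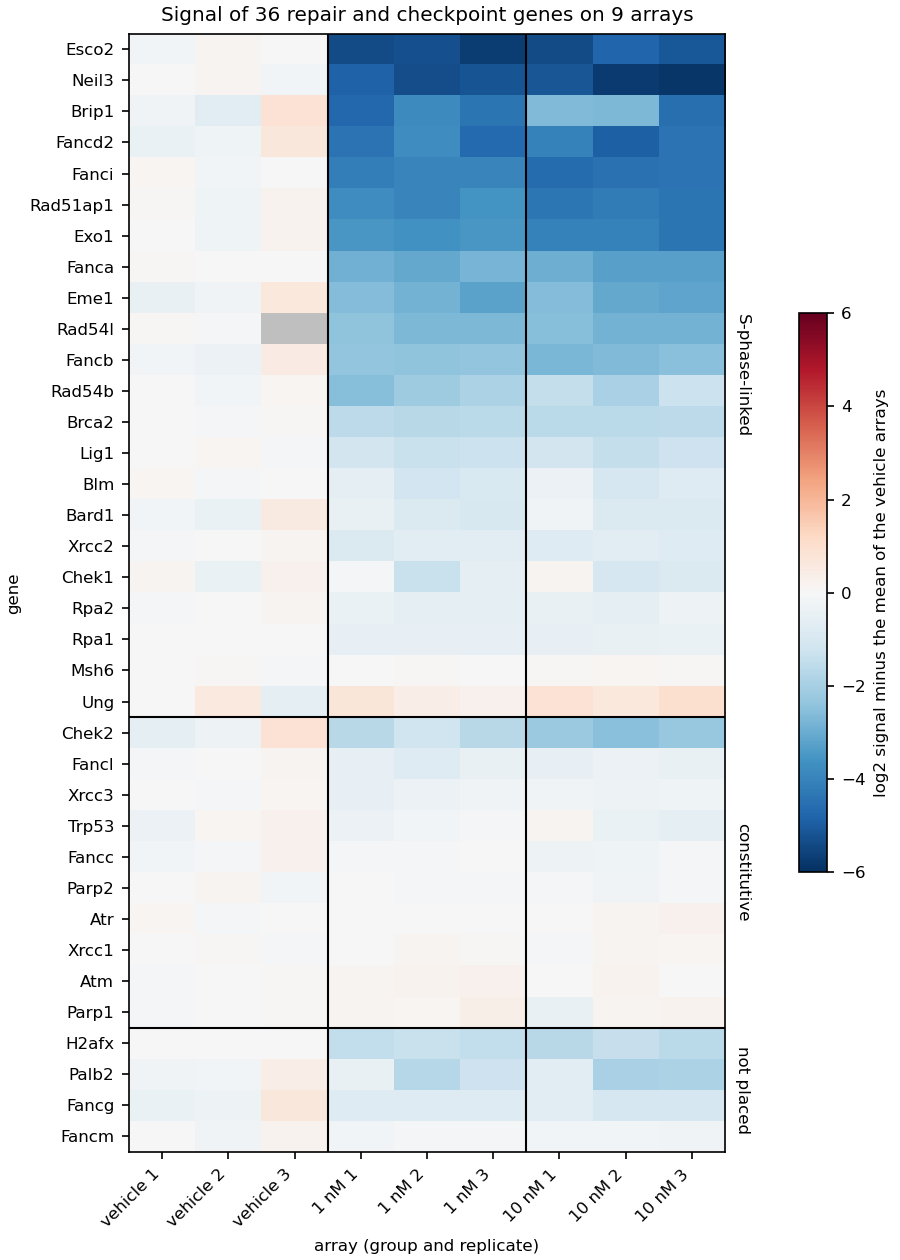
Heat map of the log2 signal of each gene minus its mean on the vehicle arrays (colour, from -6 to 6), with the 36 measured genes as rows, grouped by class, and the 9 arrays as columns. The upper S-phase-linked rows are blue on all 6 treated arrays, most constitutive rows are near white throughout, and the grey cell is Rad54l on vehicle replicate 3, where the spot was left out.

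Without vehicle replicate 3, 22 genes were lower at 1 nM and 21 at 10 nM. At 1 nM, 21 of them were also lower with all arrays, Xrcc3 being lost (-0.29, adjusted p = 0.0606) and Fancg gained. At 10 nM all 21 were lower with all arrays as well, and Blm and Palb2 were lost. The S-phase-linked medians were then -2.14 and -1.97 and the constitutive medians -0.04 and -0.11. When slide was added to the model as a block, 22 genes were lower at 1 nM and 19 at 10 nM. Within slide 1, which held 2 vehicle arrays and 1 array of each dose, 16 were lower at each dose. The spread there came from the vehicle pair alone, and the single treated arrays are assumed to vary like it, so these counts are no support of their own. Within slide 2, which held vehicle replicate 3, 2 arrays at 1 nM and 1 at 10 nM, 26 were lower and 1 (Ung) was higher at each dose. There the spread came from the 1 nM pair alone, the only vehicle array was the one that stood apart, and of all 20192 genes 7776 were called lower and 2961 higher at 1 nM. Scaling by the array median raised the change of all genes by about as much as that of the panel: the all-gene median became 0.38 at 1 nM and 0.40 at 10 nM, with 572 of all genes lower and 940 higher at 1 nM (2600 and 2584 before) and 832 lower and 1701 higher at 10 nM (3222 and 3392 before). Under that scaling 13 panel genes were lower at each dose, and the S-phase-linked medians of -1.81 and -1.59 stood beside constitutive medians of 0.44 and 0.36. The genes whose call was lost under it were Blm, Fancl, H2afx, Lig1, Rpa1, Rpa2 and Xrcc2 at both doses, Brca2 and Xrcc3 at 1 nM alone, and Fancg, Palb2 and Rad54b at 10 nM alone. Vehicle replicate 3 had a median intensity of 659.6, against 215.6 to 315.4 on the other arrays. With this scaling and without vehicle replicate 3, a setting chosen after seeing the data, 18 panel genes were lower at each dose. The calls lost were then Fancl, Rpa1, Rpa2 and Xrcc3 at 1 nM, and Blm, Fancl, Palb2, Rpa1 and Rpa2 at 10 nM. Of all genes, 1576 were lower and 2046 higher at 1 nM, and 2110 lower and 3289 higher at 10 nM.

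Homologous recombination held 13 measured genes, of which 11 fell at each dose. Rad51ap1, which stimulates strand pairing in recombination, was at 0.45, 0.10 and 0.59 on the vehicle arrays, at -3.33, -3.58 and -3.21 at 1 nM and at -3.94, -3.80 and -3.99 at 10 nM. The treated arrays all lay far below the vehicle arrays, and every 10 nM array lay below every 1 nM array. Its level fell 13.5-fold at 1 nM (log2 change -3.76, SE 0.15, adjusted p = 2.07e-06) and 19.6-fold at 10 nM (-4.29, SE 0.15, adjusted p = 6.95e-07).

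Exo1, the exonuclease that resects broken ends, had levels of -0.37, -0.63 and -0.17 on vehicle, -3.89, -4.03 and -3.88 at 1 nM, and -4.44, -4.45 and -4.77 at 10 nM. The 3 groups did not overlap. The fall was 11.7-fold at 1 nM (adjusted p = 2.13e-06) and 17.9-fold at 10 nM (adjusted p = 6.18e-07).

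Brca2, a mediator of strand exchange and a breast cancer susceptibility gene, read -0.47, -0.54 and -0.42 on vehicle, -2.03, -2.13 and -2.09 at 1 nM, and -2.11, -2.10 and -2.03 at 10 nM. Its treated arrays lay close together and far below the vehicle arrays. The change was -1.61 (SE 0.06) at each dose, with adjusted p-values of 2.26e-06 and 1.48e-06. With array median scaling its call at 1 nM was lost, but not when vehicle replicate 3 was also left out.

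Eme1, a partner of the Mus81 nuclease, read -3.16, -2.93 and -2.07 on vehicle, -5.30, -5.55 and -5.95 at 1 nM, and -5.31, -5.78 and -5.88 at 10 nM. Vehicle replicate 3 was its highest array, and the treated arrays lay below the other vehicle arrays as well, while the dose groups overlapped. Its changes were -2.88 (SE 0.31, adjusted p = 4.18e-04) and -2.94 (SE 0.31, adjusted p = 2.73e-04).

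Rad54l, a translocase of strand exchange, was measured on only 2 vehicle arrays, at -2.55 and -2.70, since its spot on vehicle replicate 3 was non-uniform and was left out of the fit. It read -5.04, -5.32 and -5.30 at 1 nM and -5.19, -5.45 and -5.46 at 10 nM. Its changes were -2.60 (SE 0.13, adjusted p = 2.56e-05) and -2.75 (SE 0.13, adjusted p = 1.24e-05). Rad54b, its relative, read -1.74, -1.91 and -1.64 on vehicle, -4.32, -3.89 and -3.68 at 1 nM, and -3.19, -3.70 and -3.05 at 10 nM. It fell by 2.20 (SE 0.21, adjusted p = 2.41e-04) and by 1.55 (SE 0.21, adjusted p = 0.00112).

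The other recombination genes moved less. Blm, the helicase that dissolves joined recombination intermediates, changed by -0.88 (adjusted p = 0.0189) and -0.71 (adjusted p = 0.0353). Xrcc2, which acts in strand exchange, changed by -0.74 at 1 nM and -0.75 at 10 nM (adjusted p = 6.64e-04 and 4.64e-04). The single-strand binding subunits had narrow spreads. Rpa1 changed by -0.49 and -0.44 (adjusted p = 6.64e-04 and 8.30e-04), and Rpa2 by -0.49 and -0.41 (adjusted p = 0.0081 and 0.0136). Xrcc3, which acts in the same process, changed by -0.36 (adjusted p = 0.0285) at 1 nM, and its change of -0.26 at 10 nM was not called (adjusted p = 0.0725). With array median scaling the changes of Rpa1, Rpa2 and Xrcc3 at 1 nM were 0.00, 0.00 and 0.13, beside the all-gene shift given above, and Blm and Xrcc2 were no longer called at either dose.

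Brca1, the ubiquitin ligase that directs broken ends to recombination, had 1 probe, spanning an exon junction at chr11:101359283-101363319 of mm9 on the minus strand. The probe was well above background on 1 of 9 arrays, so Brca1 was not tested. Bard1, its obligate partner, had 3 usable probes that disagreed. The probe with the highest mean, which entered the fit, read -1.67, -1.89 and -0.97 on vehicle, -1.95, -2.40 and -2.48 at 1 nM, and -1.72, -2.37 and -2.40 at 10 nM. Its changes of -0.77 and -0.65 were not called (adjusted p = 0.104 and 0.135).

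The fitted probe lies at chr1:71074902-71074961 and another Bard1 probe at chr1:71074294-71074353, both of mm9 on the minus strand. This other probe read -0.18, -0.44 and -0.32 on vehicle, -2.92, -2.92 and -2.90 at 1 nM, and -3.30, -3.21 and -3.42 at 10 nM. Over all kept probes its changes were -2.60 (SE 0.09, adjusted p = 1.08e-06) and -3.00 (SE 0.09, adjusted p = 3.5e-07). The third Bard1 probe was above background on the vehicle arrays alone. Bard1 is therefore the gene of the panel whose call depended most on the choice of probe. With the mean of its probes it was lower at both doses, but that mean takes in the third probe, which had to differ.

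**Figure D2:**
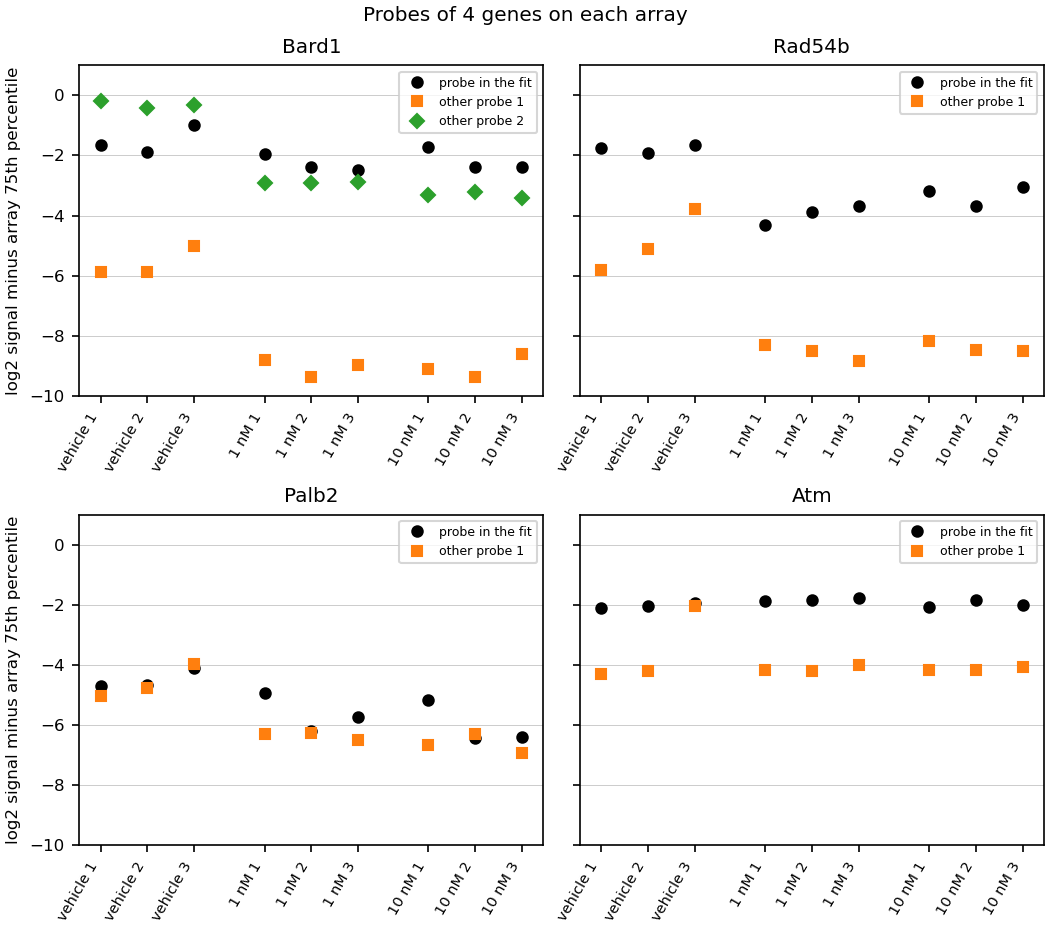
Level (log2 signal minus the array 75th percentile) of each kept probe of Bard1, Rad54b, Palb2 and Atm on the 9 arrays. Black points are the probe that entered the fit; for Bard1 the other probes fall far more than the black points, and for Atm the other probe is high on vehicle replicate 3 alone.

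Palb2, which bridges Brca1 and Brca2, read -4.71, -4.69 and -4.10 on vehicle, -4.92, -6.22 and -5.73 at 1 nM, and -5.17, -6.45 and -6.39 at 10 nM. Replicate 1 of each dose, both on slide 1, lay closest to the vehicle arrays, as did replicate 1 for the fitted probes of Bard1, Blm and Chek1. These 4 were singled out after their values were seen. The change of Palb2 was -1.13 (SE 0.44, adjusted p = 0.114) at 1 nM and -1.51 (SE 0.44, adjusted p = 0.036) at 10 nM, the latter being lost without vehicle replicate 3 (adjusted p = 0.0862). Its second probe changed by -1.77 and -2.04 (adjusted p = 0.00318 and 0.00113 over all kept probes).

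Of the 9 Fanconi genes, 6 fell at 1 nM and 7 at 10 nM, where 11.9% and 14.7% of all genes did. Both counts include Fancd2 and Brip1, which passed the filter through the vehicle arrays alone and so had to differ. Fanci, which with Fancd2 forms the clamp that is ubiquitinated at crosslinks, read -1.67, -1.94 and -1.75 on vehicle, -5.95, -5.77 and -5.77 at 1 nM, and -6.39, -6.27 and -6.21 at 10 nM. The 3 groups did not overlap. The fall was 16.5-fold (-4.04, SE 0.10, adjusted p = 2.53e-07) and 22.7-fold (-4.50, SE 0.10, adjusted p = 7.79e-08), the smallest adjusted p of the panel at either dose.

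Fancd2 read -4.42, -4.27 and -3.34 on vehicle, -8.45, -7.72 and -8.66 at 1 nM, and -8.08, -8.92 and -8.43 at 10 nM. No treated array was well above background, so the difference is a bound: its signal was at least 7.17-fold lower at 1 nM and at least 6.74-fold lower at 10 nM (adjusted p = 1.36e-04 and 7.38e-05). For such a bound the mean of the bright group was set against a floor, which on each dim array was the weakest signal still marked well above background, or the gene's own signal where that was higher.

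Brip1, the helicase bound to Brca1, read -4.30, -4.75 and -3.20 on vehicle, -8.81, -7.92 and -8.48 at 1 nM, and -6.75, -6.77 and -8.60 at 10 nM. It was at least 6.83-fold lower at 1 nM (adjusted p = 0.00153). At 10 nM it was well above background on 2 of 3 arrays and its change was -3.29 (SE 0.60, adjusted p = 0.0044). The spread of Brip1 was the widest of the panel.

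Within the core complex, which ubiquitinates that clamp, Fanca and Fancb fell and the rest moved less. Fanca read -1.56, -1.64 and -1.64 on vehicle, -4.51, -4.66 and -4.41 at 1 nM, and -4.56, -4.85 and -4.87 at 10 nM. Its fall was 7.54-fold at 1 nM and 8.86-fold at 10 nM (adjusted p = 1.31e-06 and 6.01e-07). Fancb, encoded on the X chromosome, read -1.48, -1.66 and -0.81 on vehicle, -3.69, -3.75 and -3.70 at 1 nM, and -4.04, -3.98 and -3.81 at 10 nM. Its changes were -2.40 and -2.63 (adjusted p = 1.15e-04 and 4.86e-05).

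Fancl, the ubiquitin ligase subunit, changed by -0.57 (adjusted p = 0.00631) and -0.43 (adjusted p = 0.0174), and its second probe by -0.32 and -0.26. Fancg, an adaptor, changed by -0.78 (adjusted p = 0.0737) and -0.90 (adjusted p = 0.0365). Its call at 10 nM was kept in 9 of 24 refits with other processing or arrays. Vehicle replicate 3 was the highest array for Fancg, at -3.76 beside -4.80 and -4.72. Fancc, another adaptor, changed by -0.06 and -0.21, and Fancm, which anchors the complex to DNA, by -0.13 and -0.18, with no call (adjusted p from 0.207 to 0.725).

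Base excision, mismatch and single-strand break repair held the widest range. Neil3, a glycosylase for oxidised bases and replication-linked crosslinks, read -1.49, -1.33 and -1.66 on vehicle, -6.35, -6.84 and -6.67 at 1 nM, and -6.65, -7.24 and -7.33 at 10 nM. No treated array of Neil3 was well above background. The bound set as for Fancd2 was 34.8-fold at 1 nM and 36.4-fold at 10 nM (adjusted p = 2.31e-06 and 1.00e-06). At 1 nM this bound equals the fitted fold of Neil3, and neither bound takes in the spread between arrays. The 95% intervals of the log2 change were -5.61 to -4.64 at 1 nM and -6.06 to -5.09 at 10 nM. Both intervals reach smaller falls than the bounds, so for Neil3 the bounds are not minimum falls.

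Lig1, the ligase that joins Okazaki fragments, read 1.78, 1.93 and 1.76 on vehicle, 0.70, 0.47 and 0.53 at 1 nM, and 0.72, 0.40 and 0.56 at 10 nM. Its fall was 2.39-fold and 2.40-fold (adjusted p = 1.20e-04 and 8.00e-05), with no overlap between treated and vehicle arrays. Both calls were lost with array median scaling, but not when vehicle replicate 3 was also left out. The remaining 5 genes of this group did not pass at either dose.

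Msh6, which recognises mismatched bases, read 1.34, 1.39 and 1.22 on vehicle, 1.31, 1.38 and 1.32 at 1 nM, and 1.37, 1.41 and 1.40 at 10 nM. Its change was 0.02 (95% interval -0.14 to 0.17) at 1 nM and 0.08 (-0.08 to 0.23) at 10 nM, although it had been placed among the S-phase-linked genes. Ung, which removes uracil from DNA, read 2.82, 3.42 and 2.24 on vehicle, 3.56, 3.21 and 3.07 at 1 nM, and 3.68, 3.44 and 3.78 at 10 nM. Its changes of 0.46 and 0.81 did not pass (adjusted p = 0.304 and 0.0708). At 10 nM the change was positive in all 24 refits, from 0.51 to 1.34, and Ung was called higher in 7 of them. The change was 0.16 and 0.51 without vehicle replicate 3, the lowest array for Ung.

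Xrcc1, the scaffold of single-strand break repair, changed by 0.08 (95% interval -0.12 to 0.27) and 0.07 (-0.13 to 0.27). Parp1, the main sensor of strand breaks, changed by 0.20 (-0.21 to 0.61) and -0.01 (-0.42 to 0.40). Parp2 changed by -0.04 (-0.24 to 0.17) and -0.13 (-0.34 to 0.07). Of these, Parp1 had the widest interval.

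Among the 6 checkpoint genes, Chek2 and H2afx fell at both doses. H2afx, the histone variant phosphorylated around breaks, read 1.19, 1.21 and 1.19 on vehicle, -0.30, -0.15 and -0.26 at 1 nM, and -0.49, -0.20 and -0.43 at 10 nM. The fall was 2.70-fold at 1 nM (log2 change -1.43, SE 0.09, adjusted p = 2.12e-05) and 2.96-fold at 10 nM (-1.57, SE 0.09, adjusted p = 8.30e-06), with no overlap with the vehicle arrays. Both calls were lost with array median scaling, but not when vehicle replicate 3 was also left out.

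Chek2, the effector kinase of Atm, read -4.21, -3.93 and -2.76 on vehicle, -5.29, -4.81 and -5.28 at 1 nM, and -5.88, -6.15 and -5.92 at 10 nM. The 3 groups did not overlap. Its changes were -1.49 (SE 0.35, adjusted p = 0.0193) and -2.35 (SE 0.35, adjusted p = 0.00177), and -1.06 (adjusted p = 0.00545) and -1.91 (adjusted p = 2.47e-04) without vehicle replicate 3. The call at 1 nM was lost in 6 of 24 refits (adjusted p up to 0.074). Among these were normexp, quantile normalization, the deposited table and only the groups compared. The call at 10 nM was kept in all 24. Chek2 was placed among the constitutive genes and was the only one of them with a change beyond 1 at either dose.

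Chek1, the effector kinase of Atr, read -3.42, -3.98 and -3.29 on vehicle, -3.63, -4.91 and -4.10 at 1 nM, and -3.41, -4.57 and -4.41 at 10 nM. The groups overlapped, and its changes of -0.65 (95% interval -1.61 to 0.32) and -0.57 (-1.54 to 0.40) did not pass (adjusted p = 0.313 and 0.330). A fall of 2-fold lies within these intervals.

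Atr, the kinase that answers stalled forks, read 1.1, 0.87 and 1.05 on vehicle, 1.02, 0.98 and 1.04 at 1 nM, and 0.99, 1.16 and 1.24 at 10 nM. Its change was 0.01 (95% interval -0.21 to 0.22) and 0.13 (-0.09 to 0.34). Its second probe, a dimmer one, changed by 0.20 (adjusted p = 0.16 over all kept probes) and 0.29 (adjusted p = 0.0444), the latter being called higher. Atm, the kinase that answers broken ends, changed by 0.20 (0.01 to 0.39, adjusted p = 0.134) and 0.06 (-0.13 to 0.25). Trp53, the transcription factor p53, changed by -0.22 (-0.74 to 0.30) and -0.26 (-0.78 to 0.26).

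Esco2, which acetylates cohesin so that sister chromatids stay joined, read -2.93, -2.58 and -2.78 on vehicle, -8.16, -8.05 and -8.46 at 1 nM, and -8.12, -7.52 and -7.87 at 10 nM. No treated array was well above background. Esco2 was at least 17-fold lower at 1 nM and at least 16-fold lower at 10 nM (adjusted p = 8.58e-07 and 7.88e-07).

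**Figure D3:**
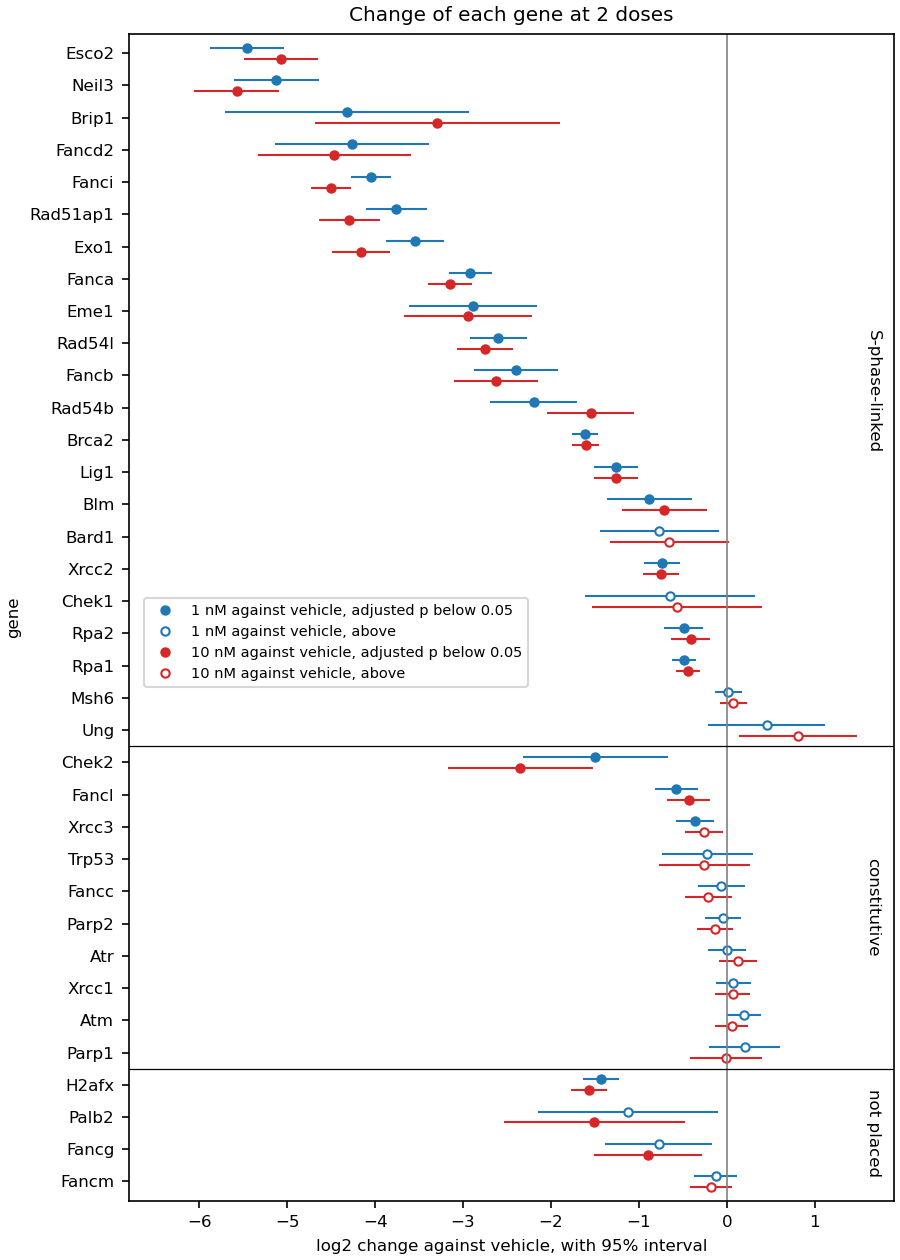
Log2 change of each measured gene at 1 nM (blue) and 10 nM (red) against vehicle, with 95% intervals. Filled points have an adjusted p below 0.05; the lowest points (Esco2, Neil3, Fancd2, and Brip1 at 1 nM) are fitted values of genes with only a bound on the treated arrays, and 7 of the 10 constitutive genes have an open point at 1 nM.

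Between the doses the panel differed little. Of 36 genes, 1 was lower at 10 nM than at 1 nM, where 2.24% of all genes were, and none was called higher, where 1.6% were. The gene was Fanci, with a change of -0.46 (SE 0.10, adjusted p = 0.0478). Same-numbered arrays of the 2 doses deviated together (correlations of 0.483, 0.33 and 0.141), and with the replicate number as a block the call was lost (adjusted p = 0.12), leaving 0 genes. Exo1 (-0.62, adjusted p = 0.0628), Rad51ap1 (-0.54, adjusted p = 0.129) and Chek2 (-0.85, adjusted p = 0.382) also had no overlap between the doses, without a call, as did Fancb (-0.23) and Fancc (-0.15). The share of all genes without overlap between the doses was not computed, so the lack of overlap in these genes is no result about the panel. Without vehicle replicate 3, which enters the shared estimate of the spread, Fanci, Exo1 and Chek2 were called. The median difference between the doses was 0.00 for the S-phase-linked genes and -0.07 for the constitutive genes. Esco2, Neil3 and Fancd2 were well above background on no array of either dose, and Brip1 on none at 1 nM. Their differences between the doses therefore cannot show an effect of dose, though they enter this median.

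Of 87 further repair and checkpoint genes, listed by pathway, 85 were measured, and 23 fell and 7 rose at 1 nM. At 10 nM 24 fell and 10 rose. Of all genes, 11.9% fell and 11.8% rose at 1 nM, and 14.7% fell and 15.5% rose at 10 nM. These shares also apply to the pathway, p53 target and marker lists below. With array median scaling the 85 genes had 5 lower and 1 higher at 1 nM, and 5 lower and 2 higher at 10 nM. Of all genes, 572 were then lower and 940 higher at 1 nM, and 832 lower and 1701 higher at 10 nM. Without vehicle replicate 3 as well, 13 of 86 were lower and 5 higher at 1 nM, and 16 lower and 8 higher at 10 nM. In homologous recombination 7 of 19 fell at each dose, among them Gen1, a resolvase (-2.42 and -2.71), while the strand annealing protein Rad52 (0.52 and 0.64) and Rad51b (0.84 and 0.86) rose. In checkpoint signalling 7 of 15 fell, including Topbp1, the activator of Atr (-1.01 and -1.14), and the fork protection pair Timeless (-1.27 and -1.57) and Tipin (-0.73 and -0.80).

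Base excision repair had 4 genes lower and 1 higher of 15 at 1 nM, and 5 lower and 2 higher at 10 nM. Fen1, the flap nuclease of replication, changed by -1.15 and -1.38, and the adenine glycosylase Mutyh by -1.22 and -0.65, while the abasic endonuclease Apex1 rose by 0.79 and 0.94. The other genes called in this list were Pcna (-0.62 and -0.54) and Tdg (-0.62 and -0.52) at both doses, and Mbd4 (-1.36) and Lig3 (0.26) at 10 nM. Of 6 mismatch repair genes Pms2 (-0.63 and -0.74) and Pms1 (-0.23 and -0.25) fell. Of 5 Fanconi genes, Usp1, which removes ubiquitin from the clamp, fell (-0.50 and -0.38).

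None of 12 nucleotide excision repair genes was called lower at either dose, and 3 and 4 rose, among them Xpc (0.47 and 0.42), Ercc5 (0.33 and 0.32) and Ercc2 (0.28 and 0.31), with Xpa (0.21) at 10 nM, whereas with array median scaling none of the 12 was called in either direction. None of 7 end joining genes was lower either. Prkdc, the catalytic kinase of end joining, changed by 0.26 (adjusted p = 0.0593) at 1 nM and rose by 0.31 (adjusted p = 0.0251) at 10 nM. In translesion synthesis Rad18 (-1.76 and -1.62) and Polh (-0.91 and -0.83) fell and Rev3l rose (0.32 and 0.42).

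Of 16 genes known as targets of p53, 8 rose and 2 fell at 1 nM, and 6 rose and 2 fell at 10 nM, against 3 and 6 that rose and none that fell with array median scaling. Sesn1 rose by 1.53 (adjusted p = 6.71e-05) and 1.84, Gadd45a by 1.17 (adjusted p = 6.91e-04) and 1.33, and Trp53inp1 by 0.72 (adjusted p = 7.57e-04) and 0.83. The genes that fell were Sesn2 (-0.52 and -0.50) and Pmaip1 (-0.30 and -0.68). Cdkn1a, the cell cycle inhibitor p21, rose by 0.31 at 1 nM (adjusted p = 0.0341). Rad51b, Pcna, Tdg, Mbd4, Lig3, Xpa, Sesn2, Pmaip1 and Cdkn1a were named after their values were seen.

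**Figure D4:**
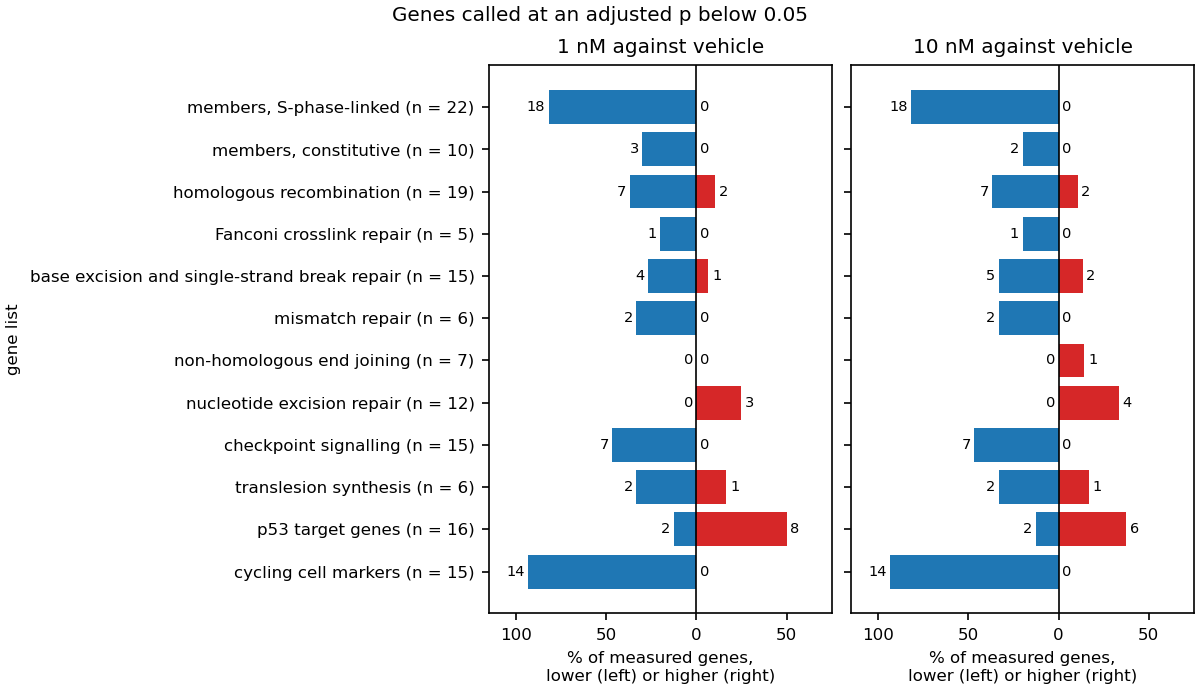
Share of the measured genes of each list called lower (blue, to the left) or higher (red, to the right) at 1 nM and at 10 nM against vehicle, with the number of genes called at the end of each bar. The longest blue bars are the S-phase-linked genes of the panel (18 of 22) and the cycling cell markers (14 of 15), and the longest red bar is the p53 target genes (8 of 16 at 1 nM).

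Markers of cycling cells moved with the panel. Of 15 measured markers 14 fell at each dose, with medians of -3.12 and -3.62. With array median scaling 11 and 12 of the 15 were lower. Mki67, a marker of proliferation, changed by -4.48 and -5.47, the mitotic survivin gene Birc5 by -4.27 and -5.02, and cyclin A2 (Ccna2) by -4.06 and -4.70. Between the doses 7 of the 15 markers were lower at 10 nM, among them Mki67 (-0.99, adjusted p = 0.00181), Ccna2 (-0.64, adjusted p = 0.00444) and Birc5 (-0.75, adjusted p = 0.00504). The part of a changed share of cycling cells in the fall of the repair genes was not tested.

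Markers of other cell types were read on the same arrays, as linear signal relative to the 75th percentile summed over each list. The muscle sum was 447 to 478 on vehicle, 532 to 588 at 1 nM and 563 to 589 at 10 nM. The adipocyte sum was 0.0809 to 0.434, 1.25 to 1.40 and 3.62 to 3.97, and 2 of its 5 markers were well above background on all vehicle arrays. The leukocyte sum was 20.8 to 25.2, 17.8 to 19.2 and 16.1 to 21.3, and the endothelial sum 3.56 to 5.93, 3.82 to 5.21 and 4.55 to 6.26. The leukocyte and endothelial sums each mostly followed a single gene. Itgam had a mean level of 4.35 on vehicle and the next leukocyte marker, Csf1r, 0.65. Kdr had 2.25 and the next endothelial marker, Pecam1, -2.13. Of the muscle markers 11 were tested, of which 4 were called higher at 1 nM, and 6 higher and 1 lower at 10 nM. Myod1, a factor of myoblast identity, rose (0.66 and 0.89), as did Ckm (0.48 and 0.37), Actc1 (0.44 and 0.36) and Tnnt3 (0.46 and 0.59). Des (0.49) and Tnnt1 (0.42) were called higher at 10 nM alone. The differentiation factor Myog was the only muscle marker called lower, at 10 nM (-0.43, adjusted p = 0.00285). With array median scaling, over the 10 markers found under their listed names, none was called at 1 nM and 1 was higher and none lower at 10 nM. Of the 5 adipocyte markers, Fabp4 was called higher at both doses (adjusted p = 0.00318 and 0.00151) and Adipoq at 10 nM (adjusted p = 0.00474). On vehicle, only 1 of 3 arrays measured either gene above background, with SDs of 2.62 and 3.33 (log2, n = 3), so no size is given. Plin1 (-0.96 and -1.45), Cidec (-0.39 and -0.44) and Lep (-1.11 and -1.26) had negative changes without a call, and the median of the list was -0.39 and -0.44. The endothelial marker Tek was called higher at both doses, with values on 2 vehicle arrays only and a signal above background on 1 vehicle array. The markers given here were named after their values were seen. The muscle and adipocyte sums were higher on all treated arrays than on the vehicle arrays, and their part in the fall of the S-phase-linked genes was not tested.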

How the data were processed

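The deposited scanner files of 9 arrays hold the processed signal as intensity on a linear scale, after background subtraction, with 0 or 1 marks per spot, per the file headers. Per the submitters' processing notes, Feature Extraction 11.5.1.1 made these files. A deposited table of log2 values for 30094 probes served as an alternative (column medians 9.65 to 9.72), and how the authors scaled it is not given in the sources used here. Probe positions are mm9, per the file headers. Control and non-uniform spots were left out and spots of a probe were averaged. Of 39429 probes, 28339 were kept because they were marked well above background throughout 1 or more of the groups. The kept probe with the highest mean stood for its gene. All 3 groups entered 1 limma 3.58.1 fit (R 4.3.3) without covariates, adjusted by Benjamini-Hochberg over 21905 genes at 0.05. The fit was tested on simulated data. Intensities carry no count depth, and 3 arrays per group limit the precision. The genes and lists were chosen with earlier results of these data known. Every gene of the panel is named, and of each further list up to 3 called genes with the smallest p at 1 nM, or the 1 with the smallest p where none was called. A gene that this rule names is not reported here. Same-numbered arrays of both doses deviated together, whereas vehicle arrays did not deviate with them (correlations from -0.421 to 0.0552). Other scalings, probe rules and models, single slides and leaving out each array were tried as alternatives.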

Additional observations from a re-analysis of the deposited data

How the results depend on the processing

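Of the 22 genes lower at 1 nM 12, and of the 23 lower at 10 nM 13, kept their direction and call under every one of 24 refits that gave them a value. Both counts include Esco2, Neil3, Fancd2 and Brip1, which passed the filter through the vehicle arrays alone and had to differ. These genes had no value over probes above background on all arrays, so their kept calls are no support. Leaving out 1 array in turn gave 20 to 22 genes lower at 1 nM, 19 to 22 at 10 nM and 0 to 3 between the doses. For the S-phase-linked genes these counts were 17 to 18, 16 to 18 and 0 to 2, and for the constitutive genes 1 to 3, 1 to 2 and 0 to 1. Genes higher at 10 nM numbered 0 to 1, the gene being Ung. The S-phase-linked medians then lay between -2.42 and -2.14 at 1 nM and between -2.22 and -1.97 at 10 nM, and the constitutive medians between -0.09 and -0.03 and between -0.21 and -0.11. With the replicate block 22 genes were lower at each dose, Fancg being lost at 10 nM (adjusted p = 0.0609), and 0 between the doses; the numbers do not pair vehicle arrays with the others. Array median scaling left 13 lower genes at each dose, and 18 at each dose when vehicle replicate 3 was also left out. At 10 nM 1 gene was higher under normexp, quantile normalization, the deposited table, trend and robust eBayes, array weights and within slide 2, and at 1 nM 1 was higher under the last 2. Constitutive genes lower at 1 nM were 1 under normexp, quantile normalization, median scaling with or without vehicle replicate 3, the deposited table, only the groups compared, slide 1 and a threshold of 0.01. At 10 nM they were 1 under both median scalings, array weights, the slide block, slide 1 and a threshold of 0.01, and 4 within slide 2.

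The S-phase-linked median at 1 nM was -1.59 under normexp, -1.33 under quantile normalization, -1.81 under median scaling, -2.04 under it without vehicle replicate 3 (chosen after seeing the data), -1.43 in the deposited table, -1.07 over probes above background on all arrays, -2.50 over the mean of probes, -2.17 with array weights and -2.14 within slide 2. At 10 nM it was, for the first 7 of these settings, -1.50, -1.18, -1.59, -1.84, -1.33, -1.0 and -2.57, and -2.56 with all probes kept, -1.61 with trend and robust eBayes and -1.92 within slide 1. The constitutive median was 0.05 and 0.02 under quantile normalization, 0.44 and 0.36 under median scaling, 0.06 and 0.03 under it without vehicle replicate 3, 0.01 and 0.00 in the deposited table, 0.01 and -0.09 with array weights, and -0.16 and -0.23 within slide 2, with -0.18 over the mean of probes at 1 nM. Between the doses 0 genes were lower under normexp, quantile normalization, median scaling, the deposited table, all probes kept, the mean of probes, trend and robust eBayes, the slide block, either slide and a threshold of 0.01, and 3 (2 S-phase-linked, 1 constitutive) with array weights or only the groups compared. Calls that reversed in sign were Rpa1 (0.00 and 0.09) and Rpa2 (0.00 and 0.12) under median scaling, Fancl at 10 nM under it (0.10), Xrcc3 at 1 nM under quantile normalization (0.01), median scaling (0.13) and the deposited table (0.01), and Fancg at 10 nM under quantile normalization and in the deposited table (0.07 in both). The cause of these shifts was not tested. Genes near background on treated arrays have only a bound.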
